A study of Sus scrofa with 19 samples.

Results

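The *Bacteroidetes* lineage of the boar fecal microbiota was followed from phylum to genus through 5 taxa. These were the phylum *Bacteroidetes*, its class *Bacteroidia*, the family *Prevotellaceae* and the genera *Prevotella* (of *Prevotellaceae*) and *Barnesiella* (of *Porphyromonadaceae*). They were taken by name from the deposited tables and are 5 of the 87 taxa listed there. Each boar's phylum share was also divided into *Prevotella*, *Barnesiella* and the unlisted rest, which is all *Bacteroidetes* sequences outside these genera.

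Fresh feces came from Duroc boars in the AOS10 group (n = 10), fed alginate oligosaccharides at 10 mg/kg body weight on top of a basal diet for 9 weeks, and in the CON group (n = 9), which received the basal diet alone. Alginate oligosaccharides are short sugar chains cut from alginate, a polysaccharide of brown seaweed. Bacteria were profiled from part (V3–V4) of their 16S rRNA gene, a marker of bacterial identity, and each value is the percent of 1 boar's sequences assigned to a taxon. There were 10 boars in each group of the study, and CON boar 6 was not analysed here. The methods give a single age of about 24 months. The labels instead carry ages of 24 to 33 months for AOS10 and of 34 to 42 months for CON, without overlap. These ages rise by 1 month from each boar to the next in listed order, so they may not be measured ages. Taken as given, label age and diet cannot be told apart. The number of sequences per boar is not stated. Low shares rose in even steps that differed between boars. Examples are 0.00244%, 0.00488% and 0.00732% in AOS10 boar 1, and 0.00208% and 0.00415% in AOS10 boar 3. The lowest nonzero value of a boar lay between 0.00208% and 0.00456% in AOS10 boars and between 0.00220% and 0.00240% in CON boars.

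*Bacteroidetes* are Gram-negative anaerobes that carry large sets of enzymes for breaking down plant and host polysaccharides and release mainly acetate, propionate and succinate. *Prevotella* is a common genus of the pig hindgut, associated with plant cell wall and starch polysaccharides. *Barnesiella* is a gut anaerobe of the same order, *Bacteroidales*. In pigs the phylum usually shares the hindgut with *Firmicutes*, whose clostridial families ferment fibre and produce butyrate.

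The phylum was a minor component in most boars of both groups and abundant in a few. *Bacteroidetes* had a lowest share of 0.964%, a median of 3.03% and a highest share of 9.61% in AOS10 boars, against 0.706%, 4.12% and 33.4% in CON boars. It lay under 6% in 9 of the 10 AOS10 boars and in 7 of the 9 CON boars. The boars above this level were AOS10 boar 9 (9.61%) and CON boars 2 (33.4%) and 7 (18.3%), and the groups overlapped over the whole AOS10 range.

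**Figure D1:**
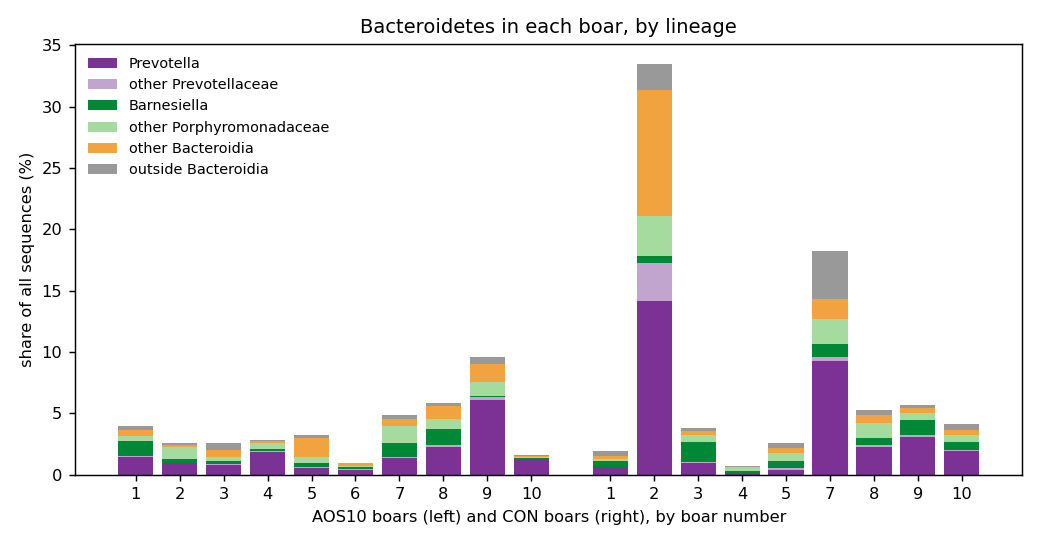
Share of *Bacteroidetes* in each boar (percent of sequences), split into its lineages, with the AOS10 boars left of the CON boars. AOS10 boar 9 stands at 9.61%, CON boar 2 at 33.4% and CON boar 7 at 18.3%, and every other boar is under 6%.

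None of the 5 taxa differed between AOS10 and CON boars beyond the spread between boars. The test was a two-sided exact permutation of the difference in mean over all 92378 ways of dividing the 19 boars, with Benjamini-Hochberg adjustment over every taxon of the same table. It called 0 of 4 phyla, 0 of 21 classes, 0 of 15 families and 0 of 18 genera at an adjusted p under 0.05, so the percent called was 0 in each of these tables. At an unadjusted p under 0.05, 0 phyla, 2 classes, 0 families and 1 genus passed, none of them among the 5 taxa. limma on log2(percent + 0.01) also called 0 taxa in each of these tables, with 1 class under 0.05 before adjustment.

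*Bacteroidetes* averaged 3.81% ± 2.50 in AOS10 boars and 8.43% ± 10.7 in CON boars (SD, n = 10 and 9; exact permutation p = 0.242, adjusted p = 0.322). *Bacteroidia*, the class that holds the gut members of the phylum, averaged 3.55% ± 2.37 in AOS10 boars and 7.51% ± 9.78 in CON boars (exact permutation p = 0.259, adjusted p = 0.598). Only 3 AOS10 boars exceeded the CON median of the phylum, and 4 exceeded that of the class. Without CON boar 2 alone the difference in mean of *Bacteroidetes* was -1.49 percentage points, against -4.61 with it. Without CON boars 2 and 7, which were chosen after their values were known, the difference in mean turned round for both taxa, to 0.365 percentage points for *Bacteroidetes* and 0.415 points for *Bacteroidia*.

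*Prevotellaceae*, the family of *Prevotella*, ranged over 0.449%, 1.38% and 6.34% (lowest, median, highest) in AOS10 boars, against 0.119%, 2.004% and 17.2% in CON boars. It averaged 1.78% ± 1.71 in AOS10 boars and 4.09% ± 5.71 in CON boars (exact permutation p = 0.269, adjusted p = 0.448). *Prevotella* itself ran from 0.420% over a median of 1.34% to 6.09% in AOS10 boars, against 0.106%, 1.98% and 14.2% in CON boars. Its mean was 1.71% ± 1.64 in AOS10 boars and 3.66% ± 4.82 in CON boars (exact permutation p = 0.273, adjusted p = 0.491). The CON group held both the lowest and the highest *Prevotella* share, in CON boars 4 and 2. Without CON boars 2 and 7 the difference also turned round, to 0.362 points for *Prevotellaceae* and 0.351 points for *Prevotella*.

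No boar was rich in *Barnesiella*, in contrast to *Prevotella*. Its lowest, median and highest shares were 0.0268%, 0.288% and 1.34% in AOS10 boars, against 0.218%, 0.628% and 1.66% in CON boars. Its mean was 0.518% ± 0.515 in AOS10 boars and 0.790% ± 0.437 in CON boars (exact permutation p = 0.230, adjusted p = 0.460), with 3 AOS10 boars above the CON median. On the log2(percent + 0.01) scale the difference was -1.16 ± 0.61 (SE; limma adjusted p = 0.419), against -0.28 ± 0.72 for *Prevotella* (limma adjusted p = 0.843). The AOS10 boars fell into 3 at 1.15% or more (boars 1, 7 and 8) and 7 at 0.359% or less, whereas 8 of the 9 CON boars had at least 0.462%.

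**Figure D2:**
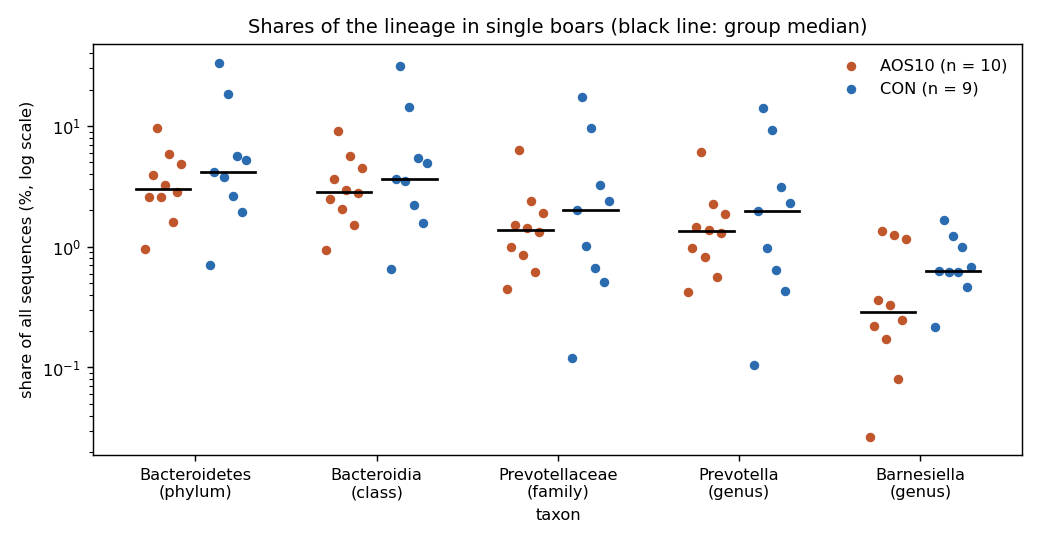
Shares of the 5 taxa in each boar (percent of sequences, log axis), AOS10 left of CON, with the group medians. The groups overlap for every taxon, and the median of *Barnesiella* is 0.288% in AOS10 boars and 0.628% in CON boars.

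The tables nested as the taxonomy requires. *Bacteroidia* made up 79.2% to 97.7% of the phylum in AOS10 boars and 78.2% to 96.3% in CON boars, and the order *Bacteroidales* had the same share as the class in every boar. *Prevotella* made up 91.2% to 98.8% of *Prevotellaceae* in AOS10 boars and 82.2% to 98.7% in CON boars. *Barnesiella* made up less of its family, with 42.2% ± 20.6 of *Porphyromonadaceae* in AOS10 boars and 50.4% ± 21.0 in CON boars. Of the 14 listed species 0 belonged to the lineage, so it could not be followed below the genus.

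Within the phylum, the make-up varied widely between boars and did not differ between the diets past the threshold. *Prevotella* formed 44.5% ± 19.8 of *Bacteroidetes* sequences in AOS10 boars and 36.6% ± 14.7 in CON boars (exact permutation p = 0.345, adjusted p = 0.534 over 4 parts). *Barnesiella* formed 13.9% ± 9.92 in AOS10 boars and 19.96% ± 12.9 in CON boars (exact permutation p = 0.267, adjusted p = 0.534). The other *Prevotellaceae* formed 1.75% ± 0.763 in AOS10 boars and 2.62% ± 2.59 in CON boars (exact permutation p = 0.400, adjusted p = 0.534). What remained, without these *Prevotellaceae*, was 39.8% ± 16.1 in AOS10 boars and 40.8% ± 11.02 in CON boars (exact permutation p = 0.879, adjusted p = 0.879).

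Single boars of the AOS10 group differed widely in composition. AOS10 boar 10 had a phylum of 1.60% of sequences, of which 82.0% was *Prevotella*. AOS10 boar 5 had 3.23%, of which 17.4% was *Prevotella* and 47.7% was *Bacteroidia* outside *Prevotellaceae* and *Porphyromonadaceae*. That part is called unlisted *Bacteroidia* families below, though it can also hold sequences assigned to no family. In AOS10 boar 2 the leading part next to *Prevotella* (37.4%) was *Porphyromonadaceae* other than *Barnesiella*, at 36.9% of the phylum. *Prevotella* was the largest of *Prevotella*, *Barnesiella* and the unlisted rest in 5 AOS10 and 3 CON boars, and the unlisted rest was the largest in 10 of the 19 boars.

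*Barnesiella* was the largest of these in 1 boar, CON boar 3, where it formed 43.5% of the phylum. It exceeded *Prevotella* in 3 boars, CON boars 3, 4 and 5. The ratio of *Prevotella* to *Barnesiella* ran from 0.485 in CON boar 4 to 75.3 in AOS10 boar 9, with 48.9 in AOS10 boar 10 and 23.1 in CON boar 2. At the family level, *Porphyromonadaceae* exceeded *Prevotellaceae* in 4 AOS10 and 3 CON boars.

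**Figure D3:**
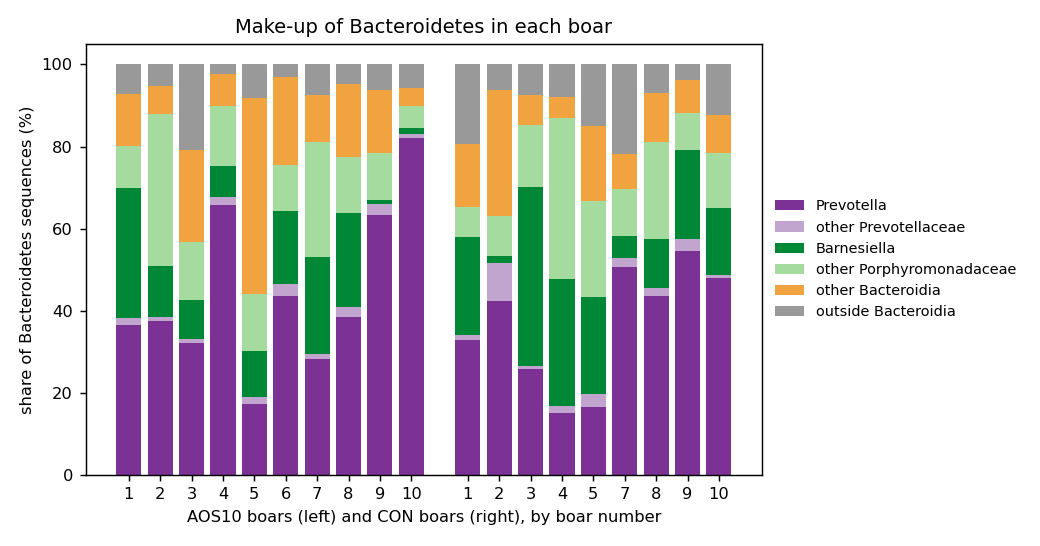
Make-up of *Bacteroidetes* in each boar (percent of the phylum), AOS10 boars left of CON boars. *Prevotella* fills 82.0% of the phylum in AOS10 boar 10 and 17.4% in AOS10 boar 5, and *Barnesiella* 43.5% in CON boar 3.

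The boars rich in the phylum were rich in *Prevotella*. AOS10 boar 9 and CON boars 2 and 7 held the 3 highest shares of both, with *Prevotella* at 6.09% in AOS10 boar 9, 14.2% in CON boar 2 and 9.25% in CON boar 7. *Prevotella* made up 63.4%, 42.4% and 50.6% of their phylum, in the same order. *Barnesiella* was at 0.0809% in AOS10 boar 9, the second lowest of all boars. It was at 0.614% in CON boar 2 and 0.993% in CON boar 7, against a CON median of 0.628%, so that CON boar 7 stood above the median and the other two below the median of their group.

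The unlisted part set the 3 boars apart from each other. CON boar 2 carried 18.7% of its sequences in the unlisted rest, more than in *Prevotella*. As percent of all its sequences, unlisted *Bacteroidia* families held 10.2% and *Prevotellaceae* other than *Prevotella* 3.06%, whereas the other *Prevotellaceae* stayed at 0.252% in AOS10 boar 9 and at 0.384% in CON boar 7. CON boar 7 carried 3.98% outside *Bacteroidia*, mostly *Sphingobacteriia* at 3.19%, a class of mainly environmental bacteria, whose next highest share was 0.220% in AOS10 boar 3. *Flavobacteriia*, another such class, reached 0.483% in CON boar 2 and 0.0519% in AOS10 boar 3, and was lower in every other boar. *Bacteroidetes* outside *Bacteroidia* averaged 0.263% ± 0.191 in AOS10 boars and 0.919% ± 1.30 in CON boars (exact permutation p = 0.0813, adjusted p = 0.244 over 3 parts).

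The variance of the phylum between boars can be divided among its parts, as the covariance of each part with the phylum over the variance of the phylum. This is a description with no test, since part and whole share sequences. Over all 19 boars *Prevotella* carried 45.2% of the variance, unlisted *Bacteroidia* families 27.0%, *Porphyromonadaceae* other than *Barnesiella* 9.43%, *Bacteroidetes* outside *Bacteroidia* 9.22%, other *Prevotellaceae* 8.20% and *Barnesiella* 0.912%. *Prevotella* carried 58.9% within AOS10 boars and 44.7% within CON boars. The unlisted rest, whose parts are given singly here, carried more than *Prevotella* over all boars and within CON boars. That rest carried less than *Prevotella* within AOS10 boars and without CON boar 2. Without CON boar 2 unlisted *Bacteroidia* families carried 8.95%, *Bacteroidetes* outside *Bacteroidia* 19.6% and *Prevotella* 54.3%.

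The lead of *Prevotella* within AOS10 rested on AOS10 boar 9. Without that boar, *Prevotella* carried 26.3% and *Barnesiella* 30.5% of the variance among the remaining 9 AOS10 boars. Among the 7 CON boars other than 2 and 7, *Prevotella* carried 57.7% and *Barnesiella* 16.3%.

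The spread of the shares was smaller in AOS10 boars but not beyond what dividing the boars at random gives. The mean absolute deviation from the group median was 1.70 points in AOS10 boars and 5.95 points in CON boars for *Bacteroidetes* (two-sided exact permutation p = 0.226), and 0.894 and 2.96 points for *Prevotella* (AOS10 and CON boars; exact permutation p = 0.174). Without AOS10 boar 9 the exact permutation p for *Prevotella* was 0.0115. Without CON boars 2 and 7 the direction turned round, by 0.298 points for *Bacteroidetes* and 0.00873 points for *Prevotella*.

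Within the lineage, *Prevotella* varied together with its relatives but not detectably with *Barnesiella*. Each part was set against the other as percent of the sequences outside that other part, over 6 pairs of parts and 19 boars, with permutation p from 100000 resamples. *Prevotella* and the other *Prevotellaceae* had Spearman's rho = 0.726 (permutation p = 0.000700, adjusted p = 0.00216) and Pearson's r = 0.854 (adjusted permutation p = 3.0e-05), with rho of 0.673 in AOS10 and 0.883 in CON boars. Without CON boars 2 and 7, the 2 farthest from the median, r was 0.891. *Prevotella* and the unlisted rest without *Prevotellaceae* had rho = 0.586 (permutation p = 0.00974, adjusted p = 0.0195) and r = 0.945 (adjusted permutation p = 4.0e-05). That relation was weaker without CON boars 2 and 7, with r = 0.643 and rho = 0.422 (adjusted permutation p = 0.184), and rho was 0.333 in AOS10 and 0.767 in CON boars.

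*Prevotella* and *Barnesiella* had rho = 0.398 (permutation p = 0.0932, adjusted p = 0.112) and r = 0.132 (permutation p = 0.615, adjusted p = 0.894), and r was 0.0286 without CON boars 2 and 7. The within-group rho was 0.139 in AOS10 boars and 0.650 in CON boars (exact permutation p = 0.0666 in CON). *Barnesiella* and the unlisted rest, again without *Prevotellaceae*, had rho = 0.307 (permutation p = 0.204, adjusted p = 0.204) and r = 0.0962 (permutation p = 0.745, adjusted p = 0.894), and r was 0.195 without AOS10 boar 8 and CON boar 3. No pair of the 6 gave a negative rho over all boars.

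Since the shares of a boar add up to 100%, the other taxa together must lose share where *Bacteroidetes* is high, though not each one of them. *Firmicutes* was lower where the phylum was higher when both were taken as percent of all sequences (rho = -0.711, permutation p = 0.000890, adjusted p = 0.00267). Its share was 78.8% in AOS10 boar 9, 60.2% in CON boar 2 and 74.5% in CON boar 7. The other taxa were therefore measured as percent of the sequences that were not *Bacteroidetes*, a measure that stays level for a taxon that shrinks in proportion with the rest.

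On that scale no relation of *Firmicutes* with the phylum was detected (rho = -0.0614, permutation p = 0.803, adjusted p = 0.803 over 3 phyla; r = 0.129, permutation p = 0.543, adjusted p = 0.815; r = -0.194 without CON boars 2 and 7). *Firmicutes* made up 87.2% of the remaining sequences in AOS10 boar 9, near the AOS10 median of 87.0% (range 72.6% to 91.5%). It made up 90.4% in CON boar 2 and 91.2% in CON boar 7, near the CON median of 91.0% (range 85.3% to 92.8%). The within-group rho was -0.515 in AOS10 and 0.05 in CON boars.

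**Figure D4:**
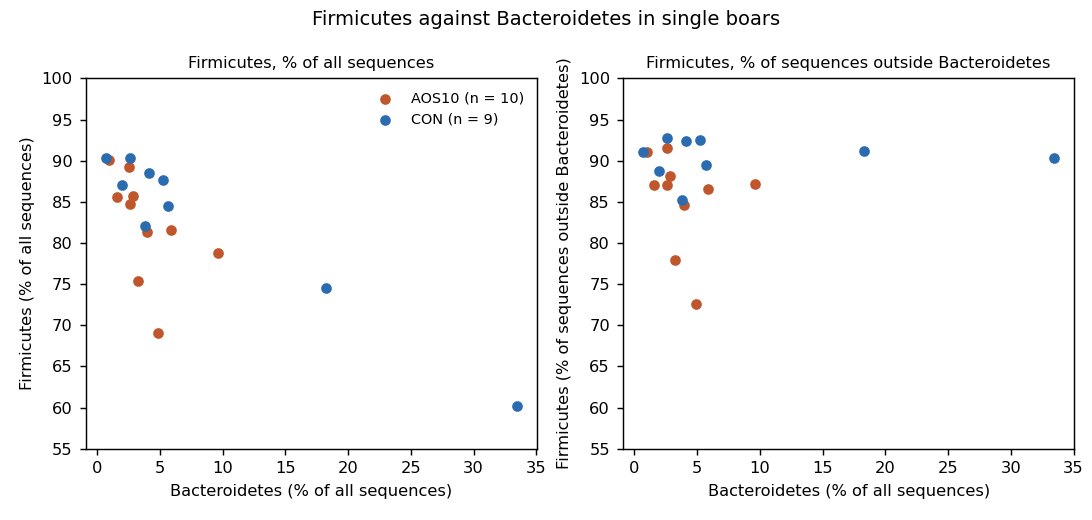
*Firmicutes* against *Bacteroidetes* in each boar, as percent of all sequences (left panel) and as percent of sequences outside *Bacteroidetes* (right panel), with AOS10 and CON boars marked. The relation has rho = -0.711 on the left and -0.0614 on the right, where CON boars 2 and 7 stand at 90.4% and 91.2%.

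*Proteobacteria* and *Actinobacteria*, the remaining listed phyla, did not pass either. *Proteobacteria* among the remaining sequences had rho = 0.307 (permutation p = 0.200, adjusted p = 0.599) and r = -0.00422 (permutation p = 0.986, adjusted p = 0.986; 0.225 without CON boars 2 and 7). Its rho was 0.855 within AOS10 boars (permutation p = 0.00270) and -0.167 within CON boars, and the difference between the groups was not tested. *Actinobacteria* had rho = 0.0632 (permutation p = 0.801, adjusted p = 0.803) and r = -0.221 (permutation p = 0.347, adjusted p = 0.815; 0.162 without CON boars 2 and 7). Of the 3 other phyla 0 varied with *Bacteroidetes* by rho (0 called) or by r at an unadjusted p under 0.05.

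CON boar 2, with the largest phylum share, was also examined in families and genera. *Ruminococcaceae*, the main fibre-fermenting clostridial family, had 24.9% of its sequences but 37.4% of those outside *Bacteroidetes*, against a CON median of 35.4%. *Lachnospiraceae*, a family with many butyrate producers, had 11.02% of all and 16.5% of the remaining sequences, against a CON median of 16.9%. *Streptococcus* did stand low in it, at 0.521% of the remaining sequences against a CON median of 9.84%, though CON boars 9 and 10 had less. *Lactobacillus*, which ferments sugars to lactate, was at its highest there, with 14.1% of the remaining sequences against a CON median of 0.545%.

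Of the genera outside the phylum, 2 of 16 tested increased with it by rho, 12.5% of that table. *Phascolarctobacterium*, which uses the succinate that *Bacteroidetes* release, had rho = 0.649 (permutation p = 0.00329, adjusted p = 0.0363), with 0.455 in AOS10 and 0.650 in CON boars. *Oscillibacter*, a genus of *Ruminococcaceae*, had rho = 0.632 (permutation p = 0.00454, adjusted p = 0.0363), with 0.600 in AOS10 and 0.550 in CON boars. Pearson's r on the same shares was 0.290 for *Phascolarctobacterium* (permutation p = 0.129, adjusted p = 0.580) and 0.359 for *Oscillibacter* (permutation p = 0.130, adjusted p = 0.580). Without CON boars 2 and 7, *Phascolarctobacterium* had rho = 0.581 (permutation p = 0.0164, adjusted p = 0.179) and r = 0.691. *Oscillibacter* then had rho = 0.549 (permutation p = 0.0241, adjusted p = 0.179) and r = 0.377, so neither passed after adjustment.

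*Phascolarctobacterium* had a lowest, median and highest share of the remaining sequences of 0.0426%, 0.834% and 6.26% in AOS10 boars, against 0.275%, 0.976% and 3.79% in CON boars. Its highest values were in AOS10 boar 9 (6.26%), CON boar 3 (3.79%) and CON boar 7 (2.52%), so both groups contributed a boar rich in both taxa. Its lowest value, 0.0426%, was in AOS10 boar 3, where the genus *Murdochiella* held 54.4% of all sequences. Whether that accounts for the low value was not tested. *Oscillibacter* had 0.839%, 3.99% and 6.31% in AOS10 boars, against 2.97%, 6.64% and 11.5% in CON boars. Either call was lost on leaving out single boars, with *Phascolarctobacterium* passing in 8 and *Oscillibacter* in 10 of the 19 such tests. The boars whose removal ended both calls were AOS10 boars 3, 4, 5, 6 and 10 and CON boars 1, 2, 4 and 7, and AOS10 boar 9 and CON boar 9 ended that of *Phascolarctobacterium* alone (adjusted permutation p up to 0.0984 for *Phascolarctobacterium* and 0.103 for *Oscillibacter*).

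The other genera nearest the ends of the order did not pass. *Terrisporobacter*, a clostridial genus, came next after *Oscillibacter*, with rho = 0.275 (permutation p = 0.252, adjusted p = 0.716) and r = 0.331 (adjusted permutation p = 0.580; 0.0834 without CON boars 2 and 7). *Streptococcus* was lowest with rho = -0.407 (permutation p = 0.0850, adjusted p = 0.453) and r = -0.204 (adjusted permutation p = 0.816; -0.483 without them). *Sporobacter* had rho = -0.325 (adjusted permutation p = 0.693) and *Eubacterium* rho = -0.153 (adjusted permutation p = 0.768). No genus of the table was called as falling where *Bacteroidetes* was high.

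**Figure D5:**
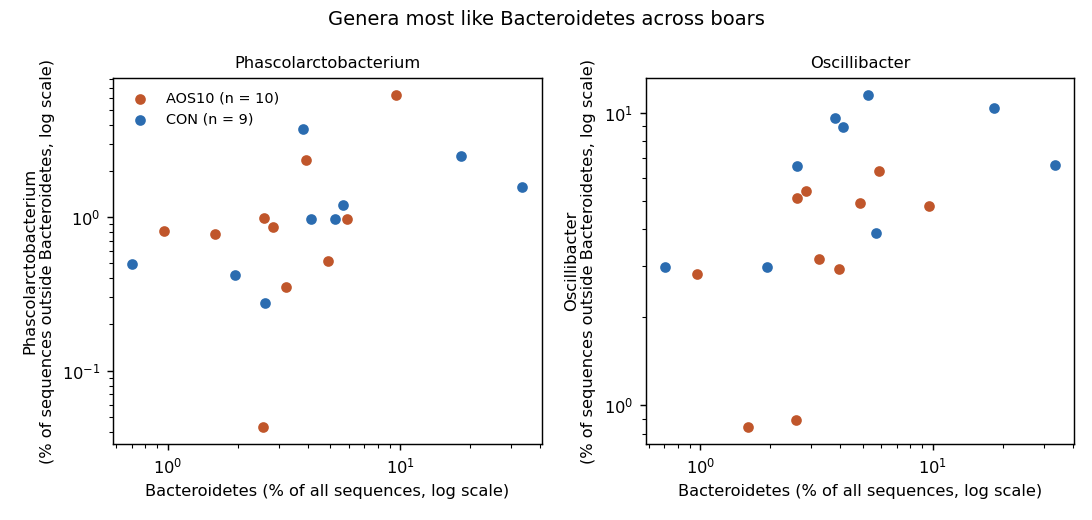
*Phascolarctobacterium* and *Oscillibacter* (percent of sequences outside *Bacteroidetes*) against the *Bacteroidetes* share (percent of sequences) in each boar, on log axes, with AOS10 and CON boars marked. The rho is 0.649 for *Phascolarctobacterium*, whose highest value is 6.26% in AOS10 boar 9, and 0.632 for *Oscillibacter*.

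In the phylum, class and family tables, 0 of 3 phyla (0%), 3 of 18 classes (16.7%) and 1 of 13 families (7.69%) varied with the phylum. The family was *Acidaminococcaceae*, which holds *Phascolarctobacterium* (rho = 0.649, adjusted permutation p = 0.0428), and it passed in 5 of the 19 tests that left out a boar. The classes were *Oligosphaeria* (rho = 0.683, adjusted permutation p = 0.0317; r = 0.911), *Epsilonproteobacteria* (rho = 0.608, adjusted permutation p = 0.0479; r = 0.435) and *Fibrobacteria* (rho = 0.601, adjusted permutation p = 0.0479; r = 0.840). Without CON boars 2 and 7 none of these passed, with rho = 0.549 and r = 0.431 for *Oligosphaeria*, rho = 0.472 and r = 0.202 for *Epsilonproteobacteria* and rho = 0.439 and r = 0.688 for *Fibrobacteria* (adjusted permutation p for rho 0.344, 0.344 and 0.369). On leaving out single boars, *Oligosphaeria* passed in 11 and the others in 7 of the 19 tests each. Pearson's r called 4 classes, *Oligosphaeria* (adjusted permutation p = 0.00936), *Fibrobacteria* (0.0129), *Spirochaetia* (r = 0.708, 0.0129) and *Alphaproteobacteria* (r = 0.808, 0.0129), but not *Epsilonproteobacteria* (0.200). By rho neither *Spirochaetia* (0.546, adjusted permutation p = 0.0744) nor *Alphaproteobacteria* (0.448, adjusted permutation p = 0.158) passed. Without CON boars 2 and 7, r was 0.503 for *Spirochaetia* and 0.208 for *Alphaproteobacteria*.

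The classes called by rho were rare. *Oligosphaeria* was above 0 in 3 AOS10 and 7 CON boars, *Fibrobacteria* in 4 AOS10 and 8 CON boars and *Epsilonproteobacteria* in 6 AOS10 and 4 CON boars. *Fibrobacteria*, a class of cellulose degraders, had its highest shares in the 3 boars rich in *Bacteroidetes*, with 0.0393% in AOS10 boar 9, 0.133% in CON boar 2 and 0.240% in CON boar 7. *Oligosphaeria* was at 0.0600% in CON boar 7 and 0.0483% in CON boar 2, and at most 0.0129% elsewhere. *Epsilonproteobacteria* was at most 0.0258% in AOS10 boars and 0.0144% in CON boars. In AOS10 boars 1, 4, 8 and 9 and CON boars 1 and 3 it was between 0.00226% and 0.00244%, near the lowest nonzero value of a boar. *Oligosphaeria* was between 0.00220% and 0.00227% in AOS10 boar 2 and CON boars 1, 3 and 8. *Fibrobacteria* was between 0.00220% and 0.00231% in AOS10 boar 4 and CON boars 8 and 10. Many ranks of each of these classes were therefore ties at 0 or values at that floor.

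By role, taxa of the same phylum and of the same food chain gave no group difference past the threshold. All 4 other listed *Bacteroidetes* (*Porphyromonadaceae*, *Bacteroidales*, *Flavobacteriia* and *Sphingobacteriia*, of 13 sought) had a lower mean in AOS10 boars, as did 41 of all 79 taxa tested. *Bacteroidales* had the same share as *Bacteroidia* in every boar and *Porphyromonadaceae* holds *Barnesiella*, so neither is separate from the taxa followed here. Of the 4, 0 were called or had an unadjusted exact permutation p under 0.05. *Porphyromonadaceae* had the smallest p of them, with 1.13% ± 0.794 in AOS10 boars and 1.82% ± 1.11 in CON boars (exact permutation p = 0.134, adjusted p = 0.448). Their median ratio of means, AOS10 over CON, was 0.317, beside 0.989 over all 79 taxa tested. Single CON boars set the order of means for both small classes. Without CON boar 7 *Sphingobacteriia* averaged 0.0381% in AOS10 boars and 0.0193% in CON boars, and the median ratio of the list was 0.606. Without CON boar 2 *Flavobacteriia* averaged 0.00887% in AOS10 boars and 0.00195% in CON boars, and the median ratio was 0.752. Without both CON boars 2 and 7 the median ratio was 1.51, with 1 of the 4 lower and 3 higher in AOS10 boars.

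Of the 7 taxa sought as succinate users, 4 were listed, all with a higher mean in AOS10 boars (median ratio 1.19). They were the class *Negativicutes* and the order *Selenomonadales*, each taken whole, the family *Acidaminococcaceae* and *Phascolarctobacterium*. The class and the order had equal means. *Phascolarctobacterium* made up nearly all of its family (means of 1.306% and 1.311% in AOS10 boars), so these were not 4 separate results. The higher means rested on AOS10 boar 9, without which all 4 were lower in AOS10 boars (median ratio 0.831). *Phascolarctobacterium* then averaged 0.823% in AOS10 boars and 1.21% in CON boars. By medians and by limma 2 of the 4 were lower, as they also were without AOS10 boar 1, CON boar 1 or CON boar 5. Of the 8 fibre degraders 4 were listed, 1 higher and 3 lower in AOS10 boars (median ratio 0.890), but 1 lower without CON boars 2 and 7. All 7 starch and sugar users were listed, 1 higher and 6 lower in AOS10 boars (median ratio 0.683), the higher one being *Bifidobacterium* at 2.44% ± 2.40 in AOS10 boars and 1.19% ± 1.79 in CON boars (exact permutation p = 0.216, adjusted p = 0.460). By limma 2 of the 7 were lower. *Lactobacillus* had a median of 1.12% in AOS10 boars and 0.531% in CON boars, and its mean was lower in AOS10 boars through CON boar 2, without which it averaged 1.18% in AOS10 boars and 0.826% in CON boars. In these lists 0 taxa passed, also before adjustment, against 0 and 3 of all 79. Several listed taxa are nested in each other, so the counts are not of independent taxa.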

How the data were processed

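Fecal 16S rRNA gene profiles of 19 boars (10 AOS10, 9 CON) were analysed, 1 sample per boar. The authors merged paired reads with FLASH, controlled quality and removed chimeras with QIIME, grouped sequences into operational taxonomic units, classified them with Greengenes and normalized to the smallest sample. They deposited each taxon as a fraction of a boar's sequences, in 6 stacked tables, and these fractions were multiplied to percent. No counts were used, so depth was not worked out and no counting interval is given. The smallest steps between shares differed between boars, which a common number of sequences per boar would not give. Shares are relative, so 1 abundant taxon depresses the rest. In AOS10 boar 3 the genus *Murdochiella* held 54.4% of sequences, against at most 0.128% in any other boar. It was above 0 in 4 boars and so was not tested. As percent of sequences other than *Murdochiella*, the difference in *Bacteroidetes* was -4.31 points, AOS10 minus CON (exact permutation, adjusted p = 0.387). All columns matched a sample by name. Sequencing batches are not given in the sources used here.

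Taxa above 0 in at least 5 boars were tested, with two-sided exact permutation of mean differences and Benjamini-Hochberg adjustment within each table. Correlations used 100000 permutations, or all 362880 pairings within CON. limma 3.58.1 (R 4.3.3) on log2(percent + 0.01) was an alternative. Other steps used Python 3.11.15, numpy 2.4.6, scipy 1.17.1, pandas 2.3.3 and matplotlib 3.10.9, and were tested on simulated data. The taxa and lists were chosen with earlier results of these data known. The text names the 5 taxa, other listed taxa of the phylum, phyla above 1% on average, list members, and the 3 highest and 3 lowest genera by rho. Rare classes, *Alphaproteobacteria*, *Lachnospiraceae* and single boars were picked after their values were seen.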

Additional observations from a re-analysis of the deposited data

Results flagged for a closer look

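Of 40 sets of boars examined, 10 had a boar whose gap to its nearest neighbour, divided by the range, exceeded Dixon's 95% critical value for the group size. For normally distributed values chance alone gives about 1 in 20. Shares that are skewed or mostly 0 can give more, so the count of flags does not show an excess. Many of these sets are nested parts of the same shares, so the flags are not independent. AOS10 boar 9 stood apart within AOS10 for *Prevotellaceae* (6.34%), *Prevotella* (6.09%) and *Phascolarctobacterium* outside *Bacteroidetes* (6.26%). AOS10 boar 7 stood apart for 2 rare classes outside *Bacteroidetes*, *Oligosphaeria* (0.0135%) and *Epsilonproteobacteria* (0.0271%). CON boar 2 stood apart within CON for *Bacteroidia* (31.3%), other *Prevotellaceae* (3.06% of sequences and 9.15% of the phylum), the rest of *Bacteroidia* without *Prevotellaceae* and *Barnesiella* (13.5%) and unlisted *Bacteroidia* families (10.2%).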

How the results depend on the processing

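The share of *Barnesiella* was lower in AOS10 boars under all 30 alternatives, and those of *Bacteroidetes*, *Bacteroidia*, *Prevotellaceae* and *Prevotella* under 29 of 30, with adjusted p between 0.193 and 0.909 over the 5 taxa. The exception for these 4 was the removal of CON boars 2 and 7, which gave AOS10 minus CON differences of 0.365, 0.415, 0.362 and 0.351 percentage points, 0.0112 points for other *Prevotellaceae* and 0.322 points for the rest of *Bacteroidia*, and reversed the spread of *Bacteroidetes* (0.298 points) and *Prevotella* (0.00873 points). Without these boars the contributions to the variance of the phylum were 2.63% for other *Prevotellaceae*, 7.50% for *Barnesiella*, 13.9% for unlisted *Bacteroidia* families and 4.62% for *Bacteroidetes* outside *Bacteroidia*. Within AOS10 they were 2.80%, 5.28%, 15.3% and 5.45%, and *Barnesiella* contributed 0.0928% within CON. Medians reversed *Prevotella* as percent of the phylum (-4.46 points) and the rest of *Bacteroidia* (0.0694 points). Dividing each group's summed *Barnesiella* shares by its summed phylum shares reversed *Barnesiella* as percent of the phylum (4.21 points).

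Leaving out 1 boar at a time gave differences of -5.58 to -1.49 points for *Bacteroidetes*, -4.82 to -0.980 for *Bacteroidia*, -2.81 to -0.665 for *Prevotellaceae*, -2.44 to -0.636 for *Prevotella* and -0.364 to -0.164 for *Barnesiella*. The unlisted rest as percent of the phylum, here without the other *Prevotellaceae* (main difference -0.991 points), ranged from -4.32 to 1.73 points and was reversed without AOS10 boar 1, 4 or 10 or CON boar 4 or 5. The spread of *Prevotella* ranged from -2.50 to -0.915 points. The contributions ranged from 2.29% to 9.43% for other *Prevotellaceae*, 0.579% to 3.87% for *Barnesiella*, 8.95% to 31.1% for unlisted *Bacteroidia* families and 5.995% to 19.6% for *Bacteroidetes* outside *Bacteroidia*. The number of taxa varying with the phylum ranged from 0 to 5 classes, 0 to 1 families and 0 to 2 genera, and rho from -0.164 to 0.00516 for *Firmicutes* (reversed without CON boar 5) and from -0.0402 to 0.212 for *Actinobacteria* (reversed without AOS10 boar 3 or CON boar 1 or 4).

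Taken as plain shares, 1 phylum, 0 classes, 0 families and 0 genera varied with *Bacteroidetes*. The counts were 0 classes, 0 families and 0 genera without CON boars 2 and 7, without AOS10 boar 3 and within CON, 1 phylum and none of the others within AOS10, and 6 classes, 0 families and 0 genera on log2 ratios. Pearson's r on shares called 4 classes, 0 families and 0 genera. Within CON, rho was -0.167 for *Proteobacteria*, 0.05 for *Firmicutes* and -0.0333 for *Terrisporobacter*, and within AOS10 it was 0.188 for *Eubacterium*. Pearson's r was -0.00422 for *Proteobacteria*, 0.129 for *Firmicutes* and -0.221 for *Actinobacteria*, whose coefficient was also negative on log2 ratios (-0.0901), as a plain share (-0.0404) and without AOS10 boar 3 (-0.0402). Within AOS10, rho was 0.673 for *Prevotella* with other *Prevotellaceae*, 0.661 for other *Prevotellaceae* with the unlisted rest and 0.333 for *Prevotella* with that rest, none past the threshold, and the last was 0.422 without CON boars 2 and 7. Of the listed taxa by role, 1 other *Bacteroidetes* and 1 fibre degrader were lower in AOS10 boars without CON boars 2 and 7, 2 succinate users by medians and 2 by limma, and 2 starch and sugar users by limma, alternatives added after the data were seen. Over single boars left out, 0 to 4 succinate users and 3 to 4 other *Bacteroidetes* were lower. The cause of these changes was not tested.

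The boars share numbers across groups, and deviations of same-numbered boars correlated between -0.433 and 0.493. Whether the numbers pair the boars was not tested. With the replicate number as a block, the difference in *Bacteroidetes* was -4.30 points and in *Barnesiella* -0.234 points (exact sign-flip adjusted p = 0.552 and 0.675), with no call changed.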
